A study of Mus musculus with 38 samples.

Results

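SATB1 and CTCF were compared in mouse thymocytes as 3 lists of urea ChIP-seq peaks, 2 for SATB1 and 1 for CTCF. The members were 45049 SATB1 peaks of replicate 1, 38882 SATB1 peaks of replicate 2 and 20323 CTCF peaks, in all 104254 of the 698638 peaks in the 11 lists of the series. Peaks were matched where they shared at least 1 bp on the mouse assembly mm9. A SATB1 site was a stretch of overlapping peaks that held a peak of both SATB1 lists, and 33000 such sites were found. Of these, 32742 touched no CTCF peak and are called SATB1-only, while 258 touched one. Of the CTCF peaks, 19975 (98.3%) touched no peak of either SATB1 list and are called CTCF-only, 256 (1.26%) touched a peak of each SATB1 list and are called shared, and 92 touched a peak of 1 SATB1 list and belong to no class. Both factors are sparse, with 7.90 CTCF peaks and 12.9 SATB1 sites per Mb, so few overlaps arise from position alone. The share expected from position was not computed, and these counts are not read as separation of the factors.

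All 3 lists came from crosslinked thymocytes of C57BL/6 mice that were wild type for Satb1, with the chromatin purified through urea before immunoprecipitation. SATB1 was precipitated with antibody 1583D, 4 µl for replicate 1 and 2 µl for replicate 2, at postnatal day 13. CTCF was precipitated with 4 µl of antibody from a sample whose title gives an age of 6 weeks and whose other labels give postnatal day 13. The replicate numbers are those of the sample labels, which are the reverse of the study's own. Both SATB1 samples carry 1 experiment code, and the labels do not say whether their chromatin was prepared separately. The study describes its 2 urea experiments as independent and its replicates as biological, taken from different animals. Because the labels do not show this for these 2 samples, spread between them may in part be technical. The labels name the cell type only as thymus and the study speaks of thymocytes, and because peak lists hold no expression values this could not be checked against marker genes. The lists read as overlaps came from wild-type C57BL/6 mice too: brain labelled 5 and 6 weeks, skin labelled postnatal day 13, and thymus by standard ChIP-seq with antibody ab109122 (replicate 1) or 1583D (replicate 2), both labelled postnatal day 13, with 6 weeks in the title of replicate 1. The study's methods give brain and skin other ages than the labels do.

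SATB1 is a nuclear protein abundant in thymocytes that binds base-unpairing regions (BURs), AT-rich stretches of DNA in which one strand lacks C or lacks G and whose strands come apart readily under superhelical strain. CTCF is a zinc finger protein that binds a long GC-containing consensus, marks the borders of many chromatin domains and halts the loops formed by cohesin. Purification of crosslinked chromatin through urea strips off proteins that are not crosslinked to the DNA itself, so both factors were mapped under the condition in which only such binding is kept, and the question was whether the 2 factors occupy the same DNA.

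Sequences of 100 bases on either side of peak summits are given first for SATB1-only and CTCF-only peaks, because the classes differed most plainly in base composition. They were read from the plus strand of NCBIM37, the assembly of mm9. For the 2 strongest SATB1-only sites outside exons, which lay 32.2 kb from Alk (chr17:72985113-72985313) and 9.91 kb from Nanog (chr6:122647500-122647700), capitals mark the longest stretch without G.
SATB1-only near Alk: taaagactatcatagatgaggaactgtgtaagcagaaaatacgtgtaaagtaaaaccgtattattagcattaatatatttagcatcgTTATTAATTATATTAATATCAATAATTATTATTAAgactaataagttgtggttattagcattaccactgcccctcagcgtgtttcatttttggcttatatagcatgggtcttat
SATB1-only near Nanog: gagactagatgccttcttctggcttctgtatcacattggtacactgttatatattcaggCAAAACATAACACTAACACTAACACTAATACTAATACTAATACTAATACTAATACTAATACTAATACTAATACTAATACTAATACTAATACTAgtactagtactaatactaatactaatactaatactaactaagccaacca
These stretches were 35 and 93 bp long, and the AT content of the windows was 71.1% and 71.6%. The strongest CTCF-only peak lay at the start of Rapgef1 (chr2:29475059-29475259) and the next 8.47 kb from Pitpnc1 (chr11:107060636-107060836), and neither window held an exact match to the 12-letter CTCF consensus. Here and below a match fits every letter of the consensus, and near matches were not counted. The strongest CTCF-only peak with a match lay 11.0 kb from Epm2aip1 (chr9:111192448-111192648). It was chosen after the values were seen, and capitals mark the match.
CTCF-only at Rapgef1: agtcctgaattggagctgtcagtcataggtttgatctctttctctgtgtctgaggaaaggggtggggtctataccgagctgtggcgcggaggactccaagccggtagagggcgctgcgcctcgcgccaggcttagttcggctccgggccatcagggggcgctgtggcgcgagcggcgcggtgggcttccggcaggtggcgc
CTCF-only near Pitpnc1: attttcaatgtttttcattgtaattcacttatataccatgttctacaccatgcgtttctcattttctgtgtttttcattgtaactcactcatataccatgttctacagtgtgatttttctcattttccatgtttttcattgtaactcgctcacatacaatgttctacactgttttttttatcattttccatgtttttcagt
CTCF-only near Epm2aip1: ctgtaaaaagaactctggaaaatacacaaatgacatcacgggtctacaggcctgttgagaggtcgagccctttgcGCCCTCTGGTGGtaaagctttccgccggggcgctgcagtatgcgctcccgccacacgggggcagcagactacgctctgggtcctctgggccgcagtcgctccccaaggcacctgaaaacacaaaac
The windows at Rapgef1 and near Epm2aip1 had an AT content of 34.8% and 41.8%. The window near Pitpnc1 had 70.1%, above the CTCF-only range described below, and its peak overlapped a BUR, SATB1 peaks of brain and skin and a standard ChIP-seq SATB1 peak of thymocytes, but no urea SATB1 peak of thymocytes.

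Shared peaks are shown by the 2 with the highest CTCF fold enrichment outside exons, near Cr2 (chr1:197067692-197067892) and near Gm6020 (chr19:61275561-61275761), neither of which held a consensus match. The strongest shared peak with both a consensus match and a BUR, chosen after the values were seen, lay 73.7 kb from Ppp2r5c (chr12:111611716-111611916), and capitals mark the match.
Shared near Cr2: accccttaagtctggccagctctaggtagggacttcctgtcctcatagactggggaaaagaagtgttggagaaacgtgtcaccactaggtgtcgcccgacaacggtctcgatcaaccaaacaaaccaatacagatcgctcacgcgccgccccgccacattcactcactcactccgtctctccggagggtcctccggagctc
Shared near Gm6020: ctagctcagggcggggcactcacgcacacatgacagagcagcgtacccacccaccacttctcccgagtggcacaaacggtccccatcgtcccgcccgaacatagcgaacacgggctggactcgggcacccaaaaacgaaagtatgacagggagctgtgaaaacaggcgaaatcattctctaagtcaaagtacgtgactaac
Shared near Ppp2r5c: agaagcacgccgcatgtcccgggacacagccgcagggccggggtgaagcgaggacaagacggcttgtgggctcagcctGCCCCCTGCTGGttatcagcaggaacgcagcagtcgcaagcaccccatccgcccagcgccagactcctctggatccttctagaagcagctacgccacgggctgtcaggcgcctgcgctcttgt
Their AT content was 43.3%, 43.8% and 34.3%.

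SATB1-only peaks were richer in AT than the genome and CTCF-only peaks poorer. The median AT content of the summit with 100 bases on either side was 70.65% in the SATB1-only peaks of each SATB1 list, 49.75% in CTCF-only peaks and 58.2% at 255837 positions spaced 10 kb apart, which served as the level of the genome. An AT content of 65% or more was found in 82.4% and 82.3% of the SATB1-only peaks of replicates 1 and 2, in 1.75% of CTCF-only peaks and at 20.4% of grid positions. An AT content under 50% was found in 0.159% and 0.131% of SATB1-only peaks, 50.1% of CTCF-only peaks and 14.6% of grid positions. Only the tails of the distributions met: the lowest 5% of SATB1-only peaks of replicate 1 lay below 59.7% and the highest 5% of CTCF-only peaks lay above 61.7%.

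**Figure D1:**
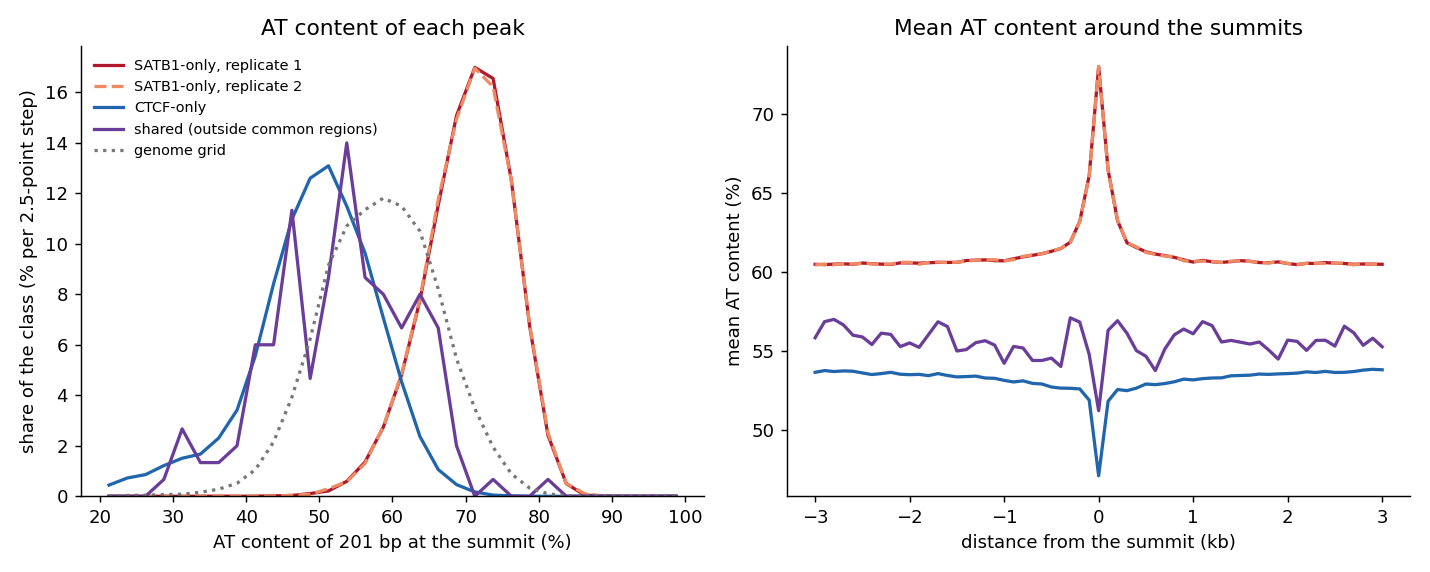
Left, share of each class (%) by AT content of the summit with 100 bases on either side, in steps of 2.5 percentage points. Right, mean AT content (%) in steps of 100 bp up to 3 kb from the summit. Both SATB1-only lines, which overlie each other, peak above the dotted genome line and CTCF-only peaks below it; at 3 kb the SATB1-only mean was 60.5% on either side.

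The difference was sharpest at the summit and continued into the flanks. Mean AT content at the centre of SATB1-only peaks was 73.0% in both lists and settled at 60.5% at 3 kb. At the centre of CTCF-only peaks it was 47.1%, against 53.8% at 3 kb downstream. The flanks of SATB1-only peaks were thus above the 58.2% of the grid and those of CTCF-only peaks below it. The longest stretch without C or without G in the window had a median of 32 bp in SATB1-only peaks, 20 bp in CTCF-only peaks and 24 bp on the grid, and stretches of 30 bp or more were present in 60.4% and 60.6% of SATB1-only peaks and 15.6% of CTCF-only peaks.

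Both short sequence motifs that were searched divided the classes. The CTCF consensus, read on both strands, was found in 25.7% of CTCF-only peaks, 0.0214% of SATB1-only peaks in each list and 0.0915% of grid windows. AATATATTT, the core unwinding element of a classical BUR, read on both strands, was found in 3.20% of SATB1-only peaks in each list, 0.256% of CTCF-only peaks and 0.768% of grid windows. A match is a statement about letters and was not taken as a binding site. The motifs were searched separately, and AATATATTT holds no C or G.

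The SD between the SATB1 lists is close to 0 for these values because the rule places the members of both lists on the same sites. When each SATB1 list was instead taken on its own, without requiring the other, the median AT content was 70.65% in both. CTCF has 1 list, so no spread between CTCF replicates could be given. With 2 lists against 1, a permutation test over lists cannot give a p below 0.333, so no test was made, and the differences are described beside the spread of the 2 SATB1 lists and the level of the genome.

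SATB1 peaks found in both lists were stronger than those found in 1. The median fold enrichment over the local background was 9.36 in replicate 1 and 8.58 in replicate 2 for peaks of both lists without CTCF. It was 5.34 for the 11980 peaks of replicate 1 alone and 5.46 for the 5820 peaks of replicate 2 alone. CTCF-only peaks had a median of 7.83. Fold enrichment is not scaled between samples, so these levels do not rank SATB1 against CTCF.

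Gene starts were fewer around SATB1-only peaks than around CTCF-only peaks. Within 500 kb of the summit, the median number of protein-coding gene starts was 3 for SATB1-only peaks in each list, 13 for CTCF-only peaks and 6 for grid positions. No protein-coding gene started within 500 kb of 19.5% of SATB1-only peaks, 0.331% of CTCF-only peaks and 10.6% of grid positions. At the other end, 20 or more genes started within that distance of 6.46% of SATB1-only peaks and 30.2% of CTCF-only peaks. By this measure SATB1-only peaks lay below and CTCF-only peaks above the level of the genome.

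The summits also fell in different parts of genes. A protein-coding gene held 34.6% of SATB1-only summits in each list, 48.7% of CTCF-only summits (95% Clopper-Pearson interval 48.0 to 49.4%, covering counting error only) and 38.8% of grid positions. The start of a transcript lay within 1 kb of 1.55% and 1.54% of SATB1-only summits and 15.1% of CTCF-only summits, against 3.11% of the grid. Exons away from starts held 0.877% and 0.883% of SATB1-only summits and 4.21% of CTCF-only summits. Introns held close shares of both, 32.6% of SATB1-only and 35.6% of CTCF-only summits, so the classes differed mainly at gene starts and between genes. Intergenic DNA held 65.0% of SATB1-only summits and 45.1% of CTCF-only summits.

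**Figure D2:**
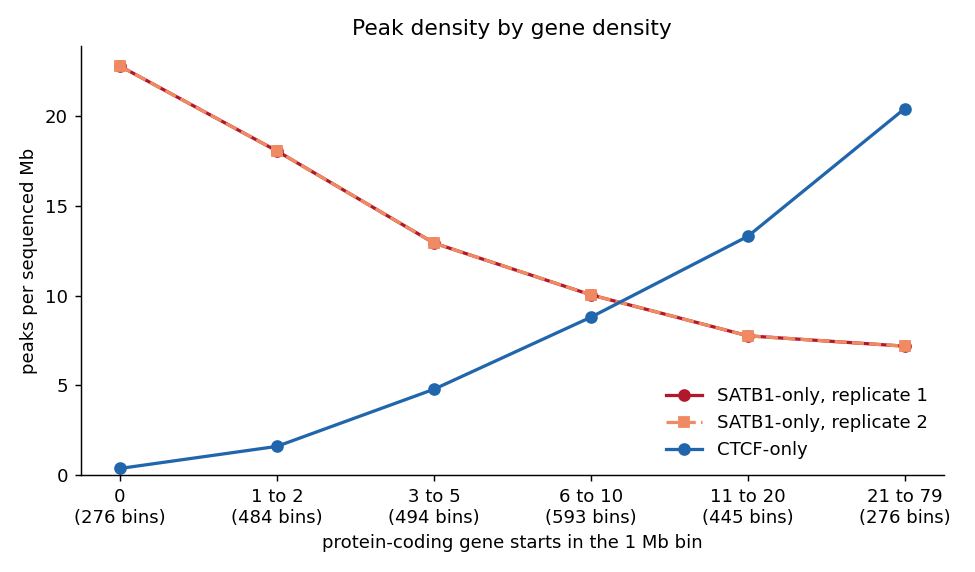
Peaks per sequenced Mb (vertical axis) in 1 Mb bins grouped by their number of protein-coding gene starts (horizontal axis), for SATB1-only peaks of each list and CTCF-only peaks. SATB1-only density goes from 22.8 per Mb in bins without a gene down to 7.19 in bins with 21 to 79 genes, while CTCF-only density goes from 0.374 up to 20.4, and the lines cross between 6 and 20 genes.

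Across 2568 bins of 1 Mb, the densities of the 2 factors ran in opposite directions along gene density. In 276 bins without a protein-coding gene start, SATB1-only peaks stood at 22.8 per sequenced Mb and CTCF-only peaks at 0.374. In 494 bins with 3 to 5 genes they stood at 12.9 and 4.79. In 276 bins with 21 to 79 genes they stood at 7.19 and 20.4. Across these groups the AT content of the bins went from 62.1% to 54.6%. The Spearman correlation over bins between SATB1-only sites and CTCF-only peaks was -0.606. It was -0.609 between SATB1-only sites and genes, 0.747 between CTCF-only peaks and genes, 0.784 between SATB1-only sites and AT content, and -0.836 between CTCF-only peaks and AT content. Bins are not independent samples, gene number and AT content vary together along the genome, and their separate parts were not tested.

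Both factors were present in most of the genome. Of the bins, 1948 held both SATB1-only sites and CTCF-only peaks, 584 held SATB1-only sites alone, 14 held CTCF-only peaks alone and 22 held neither. The bin with the most SATB1-only sites was chr15:17000001-18000000, with 49 sites, no CTCF-only peak, no protein-coding gene start and an AT content of 64.2%. The bin with the most CTCF-only peaks was chr10:80000001-81000000, with 60 peaks, 4 SATB1-only sites, 59 gene starts and an AT content of 46.3%. Among whole chromosomes, 11 had the most CTCF-only peaks per Mb (14.1, against 10.0 SATB1-only sites) and 16 the most SATB1-only sites per Mb (16.5, against 6.48 CTCF-only peaks). SATB1-only sites outnumbered CTCF-only peaks on every autosome except 7, 11 and 19, which have 14.6, 13.9 and 12.5 protein-coding genes per Mb, the highest of the autosomes.

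Spacing between the factors was measured from the edge of one peak to the nearest edge of the other. The median distance from a SATB1-only peak to the nearest CTCF peak was 252 kb in both lists, with quartiles of 54.1 and 806 kb, against 101.5 kb from grid positions. Taken list by list without requiring the other, the median was 258 kb for replicate 1 and 247 kb for replicate 2. Within 10 kb of a CTCF peak lay 7.04% and 7.03% of SATB1-only peaks, against 12.9% of grid positions. Within 100 kb lay 34.5%, against 49.7%. The class rule removes overlapping peaks and so lowers the shares at short distances. Among all SATB1 peaks, with no class removed, 1.30% and 1.501% lay within 1 kb of a CTCF peak or on it, 7.34% and 7.73% within 10 kb, and 34.4% and 35.3% within 100 kb, against 1.74% of grid positions within 1 kb. Seen from the other side, the median distance from a CTCF-only peak to the nearest SATB1 site was 53.2 kb, against 30.5 kb from the grid. Such distances depend on the length of the target list, and when each list was cut to its 20000 peaks with the lowest q-values the medians were 260 kb and 102 kb.

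**Figure D3:**
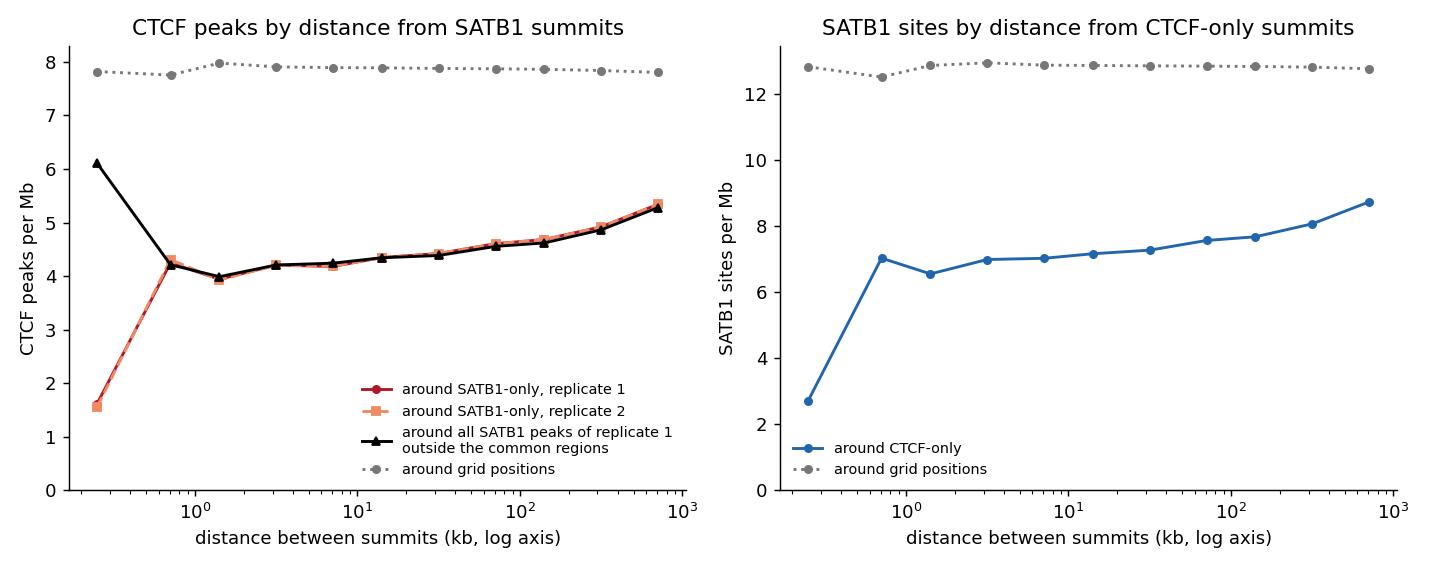
Left, CTCF peaks per Mb by distance from SATB1 summits (kb, log axis), around SATB1-only peaks of each list, all SATB1 peaks of replicate 1 outside regions common to all lists, and grid positions. Right, SATB1 sites per Mb by distance from CTCF-only summits and grid positions. Beyond 0.5 kb the lines around peaks run nearly level, at about 4 CTCF peaks per Mb on the left, below the grid line near 7.9, and climb slowly toward 1 Mb.

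The low density of the other factor was a feature of wide regions. Around SATB1-only summits of replicate 1, CTCF peaks stood at 4.25 per Mb at 0.5 to 1 kb, 4.18 at 5 to 10 kb, 4.60 at 50 to 100 kb and 5.34 at 500 to 1000 kb. Replicate 2 gave 4.31, 4.19, 4.60 and 5.34. The grid stayed between 7.75 and 7.98 over the same distances. SATB1 sites around CTCF-only summits stood at 7.02 per Mb at 0.5 to 1 kb and 8.72 at 500 to 1000 kb, against 12.5 and 12.8 on the grid. From 0.5 kb outward no distance stood out as preferred.

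The nearest 0.5 kb depends on the classes themselves. There CTCF stood at 1.62 and 1.56 per Mb around SATB1-only summits, because peaks that overlap had been removed by the rule. Around all SATB1 peaks outside regions where all 11 lists have a peak, with no class taken out, it stood at 6.11 per Mb in replicate 1 and 6.84 in replicate 2, above the 4.21 and 4.93 of the next 0.5 kb. With those regions kept it stood at 7.64 and 8.49. The grid had 7.82, so the position of SATB1 peaks relative to the grid at this distance depended on the common regions and, with them kept, differed between the SATB1 lists.

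Along the chromosomes the 2 classes came in runs. The next member after a SATB1-only site was another SATB1-only site in 81.1% of cases, where such sites make up 62.1% of the members. The next after a CTCF-only peak was another CTCF-only peak in 69.1%, where these make up 37.9%. Runs of at least 5 held 74.6% of SATB1-only sites and 55.0% of CTCF-only peaks. The longest run of SATB1-only sites held 378 sites over 11.3 Mb (chr14:88125097-99421404) and touched 7 protein-coding genes, among them the protocadherins Pcdh9 and Pcdh20, Klhl1 and the transcription factor Dach1. The next held 272 sites over 8.33 Mb of the same chromosome (chr14:106911487-115240777), with Slitrk1, Slitrk5 and Slitrk6, which encode synaptic membrane proteins. The third held 212 sites over 5.90 Mb (chr15:12770159-18672871), with the cadherins Cdh6 and Cdh9. In contrast, the longest run of CTCF-only peaks held 57 peaks over 1.74 Mb (chr5:114358892-116103183) and touched 53 protein-coding genes.

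Some peaks of the 2 factors lay side by side. Of 32701 SATB1-only sites with a CTCF-only peak on their chromosome, 41 lay within 100 bp of one, 144 within 500 bp and 277 within 1 kb. In the closest pair, 5.28 kb from Extl2, the SATB1-only site (chr3:115736882-115737522) directly followed the CTCF peak (chr3:115736659-115736881), and the summits were 421 bp apart. Its SATB1 fold enrichment was 15.8 in both lists and its CTCF fold enrichment 6.33. The next pairs had gaps of 12 bp at the start of Gm5959, 14 bp near Klrb1f, a gene of a natural killer receptor family, 16 bp near Spocd1 and 16 bp near Blcap. Across these 5 pairs the summits lay 310 to 421 bp apart, and the AT content at the SATB1 summit was 56.2 to 70.1% against 33.3 to 60.7% at the CTCF summit, with the SATB1 summit richer in AT in each pair. At the other side of the 1 bp limit, the smallest overlaps of a shared peak with a SATB1 peak of replicate 1 were 9 bp near Ddx6, 10 bp near Snx4 and 11 bp near Ldoc1l.

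Distance to the other factor graded the members of each class. SATB1-only peaks of replicate 1 within 10 kb of a CTCF peak numbered 2303. They had a median AT content of 67.2%, 10 protein-coding genes within 500 kb and a BUR under 67.8% of them. The 11842 peaks 500 kb or more from CTCF had a median AT content of 72.6%, 1 gene and a BUR under 87.3%. Replicate 2 gave 67.2% and 72.6% for AT content and 67.8% and 87.3% for BURs. Median fold enrichment hardly varied with this distance, 9.47 for the near and 9.20 for the far group of replicate 1. Among CTCF-only peaks, those within 10 kb of a SATB1 site had a median AT content of 51.7% and those 100 to 500 kb away 48.3%, with the consensus in 24.8% and 25.8%. SATB1-only peaks within 10 kb of CTCF were thus still richer in AT than CTCF-only peaks within 10 kb of SATB1.

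The other 8 peak lists of the series were read over the 3 classes. BURs, mapped with SATB1 protein on purified genomic DNA, lay under 80.0% of SATB1-only peaks in both lists, 1.82% of CTCF-only peaks (interval 1.64 to 2.01%) and 4.22% of grid positions. Urea SATB1 peaks of brain overlapped 95.5% (replicate 1) and 94.95% (replicate 2) of SATB1-only peaks but 0.777% and 0.597% of CTCF-only peaks. Urea SATB1 peaks of skin overlapped 27.5% and 26.7% of SATB1-only peaks but 0.181% and 0.166% of CTCF-only peaks, against 0.169% and 0.164% of the grid. In the opposite way, urea CTCF peaks of skin overlapped 83.5% of CTCF-only peaks (interval 82.96 to 83.99%) and 0.333% and 0.330% of SATB1-only peaks. The class rule lowers such small shares, and no order against the grid is read from them. Among all SATB1 peaks, common regions included, skin CTCF overlapped 0.803% (replicate 1) and 0.867% (replicate 2), against 0.489% of the grid. Grid positions have no peak length, while a peak counts wherever any of its bases overlaps, which raises its share. A peak share above that of the grid is therefore not read as enrichment here. Among all CTCF peaks, skin SATB1 overlapped 0.969% and 0.955%. BURs overlapped 2.57% of all CTCF peaks and brain SATB1 1.78% and 1.61%, below the grid's 4.22%, 2.199% and 1.95%.

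Standard ChIP-seq for SATB1, in which sheared chromatin is precipitated without urea purification, was found at CTCF-only rather than SATB1-only peaks. Its peaks overlapped 52.5% (replicate 1) and 23.3% (replicate 2) of CTCF-only peaks in thymocytes, and 0.434% and 0.332% of SATB1-only peaks (means of both urea lists). Among all SATB1 peaks of urea replicate 1 the shares were 0.759% and 0.599%, and of urea replicate 2 0.895% and 0.694%. Grid positions, which have no peak length, gave 0.735% and 0.347%, so no order is read from these shares. The CTCF-only class thus holds no thymocyte urea SATB1 peak by its rule and yet, in the standard replicate with the larger overlap, carries a SATB1 peak at 10477 of its 19938 members on chromosomes 1 to 19, X and Y.

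**Figure D4:**
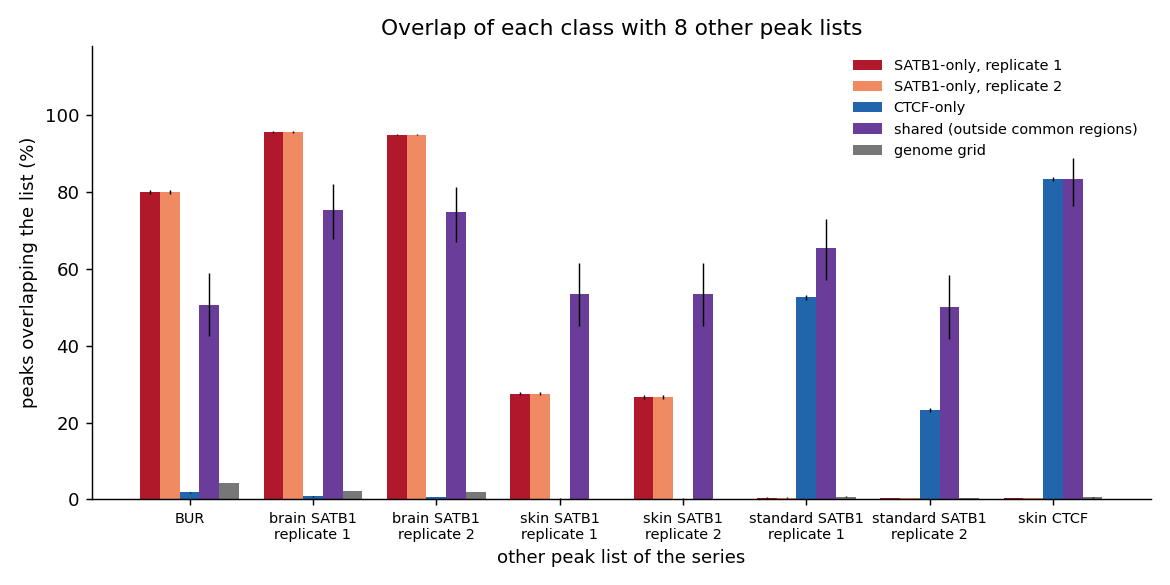
Share of each class (%) that overlaps each of 8 other peak lists of the series. Bars are SATB1-only peaks of each list, CTCF-only peaks, 150 shared peaks outside common regions and grid positions, and error bars are 95% Clopper-Pearson intervals for counting error. SATB1-only bars are high for BURs (80.0%) and brain SATB1, CTCF-only bars for standard SATB1 and skin CTCF (83.5%), and the shared bars are at or above 50% in all 8 lists.

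Peak strength moved these overlaps within each class. Each class was ranked by fold enrichment and cut into 4 groups of equal size. The strongest group of CTCF-only peaks overlapped skin CTCF in 96.4% and the weakest in 65.5%, with a median AT content of 46.8% and 51.2% and the consensus in 29.2% and 19.1%. SATB1-only peaks in the strongest group lay on a BUR in 94.1% (replicate 1) and 93.7% (replicate 2), and in the weakest in 68.0% and 71.8%. Their median AT content went from 71.6% in the strongest group of each list to 69.7% and 70.1% in the weakest. The weakest SATB1-only group was thus still richer in AT than the weakest CTCF-only group.

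Shared peaks were few and did not form an even mixture of the other classes. Of the 256, 54 lay on sequence not placed on a chromosome, 50 of them on the unplaced bin chrUn_random, and 52 lay in the 57 regions (15.8 kb in all) where every one of the 11 lists has a peak. The 150 that remained are described here. Their median AT content was 53.5%, between CTCF-only peaks and the grid, with 10.0% at 65% or more and 36.0% under 50%. A CTCF consensus was found in 18 of the 150 (12.0%). They had a median of 10 protein-coding genes within 500 kb, and 12.7% lay within 1 kb of a transcript start.

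Overlap of the shared peaks with other lists was high on both sides. BURs lay under 76 of the 150 (50.7%, interval 42.4 to 58.9%), skin CTCF under 125 (83.3%, interval 76.4 to 88.9%), and standard SATB1 of either replicate under 107. Skin SATB1 peaks of each replicate lay under 80 (53.3%, interval 45.0 to 61.5%), above the 27.5% and 26.7% of SATB1-only peaks. Brain SATB1 lay under 113 and 112, or 75.3% and 74.7%, below the 95.5% and 94.95% of SATB1-only peaks. The 76 with a BUR had a median CTCF fold enrichment of 7.19 and a median SATB1 fold enrichment of 10.1 in replicate 1, and the 74 without had 9.17 and 6.61.

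The summits of the 2 factors often lay apart within a shared peak. Their median distance, between CTCF and SATB1 replicate 1, was 106 bp. In 51 of the 150 the summits lay within 50 bp, and of these 0 held a CTCF consensus and 15 a BUR. In the other 99 the consensus was found in 18 and a BUR in 61. Median AT content was close, 52.2% and 53.7%. Shared peaks with coinciding summits thus held no consensus match and fewer BURs, and what lies behind this was not tested.

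The strongest peaks of each class are named by fold enrichment outside the common regions. For SATB1-only sites they lay near Alk, a receptor tyrosine kinase (36.2 in replicate 1 and 35.5 in replicate 2), near Nanog, a pluripotency transcription factor (35.9 and 35.2), in an intron of Khdrbs2, an RNA-binding protein (34.6 and 34.8), near Chga, chromogranin A (34.8 and 34.6), and 201.1 kb from Klhl13 on chromosome X (34.0 and 35.0). All 5 lay on a BUR and on brain and skin SATB1 peaks of every replicate, and their AT content ran from 62.2% to 78.1%. The site near Nanog, where the longest stretch without G was 93 bp, also overlapped a skin CTCF peak and a standard SATB1 peak of replicate 2. Among CTCF-only peaks the strongest lay at the start of Rapgef1, a guanine nucleotide exchange factor (39.5), near Pitpnc1 (35.4), near Epm2aip1 (34.4), at the start of Gbas (33.9) and near Enah, an actin regulator (32.4). All 5 overlapped skin CTCF, and apart from the peak near Pitpnc1 their AT content was 29.4 to 41.8%.

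The strongest shared peaks lay near Cr2, a complement receptor, with a CTCF fold enrichment of 39.0 and SATB1 values of 9.65 and 6.76, and near Gm6020, with 37.1 for CTCF and 17.2 and 16.1 for SATB1. They were 128 kb and 66.8 kb from the ends of their chromosomes. Of the 150 shared peaks, 6 (4.00%) lay within 200 kb of the end of the assembled chromosome, against 0.119% of SATB1-only and 0.150% of CTCF-only peaks. The next lay near BC048403 (36.0 for CTCF, 29.0 and 31.1 for SATB1), near Ddhd1 (35.3, 28.5 and 27.8) and in an intron of Tiam2 (30.7, 20.2 and 18.6). None of these 5 lay on a BUR or held the consensus, and their AT content was 40.8 to 46.8%.

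Genes were then counted by the sites in their span. The genes with the most SATB1-only sites were long and were nearly free of CTCF-only peaks. Lrp1b, a lipoprotein receptor relative that spans 2058 kb, and Ptprd, a receptor tyrosine phosphatase that spans 2271 kb, each held 55 SATB1-only sites and 0 CTCF-only peaks. Cntnap2, a neurexin relative, held 51 and 5. Csmd3 held 50 and 1, and Fam190a 44 and 1. Dmd, which encodes dystrophin, held 41 and 4, Sgcz, a sarcoglycan, 41 and 0, Dcc, the netrin receptor, 39 and 0, and Il1rapl1 39 and 1. The spans of these genes ran from 1092 to 2271 kb.

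The genes with the most CTCF-only peaks were led by Gm20388 with 113 and Fgfr2 with 29. Their annotated spans, 4435 and 3009 kb, take in many other genes, so these counts are of wide regions and not of single transcription units. Pde4d, a cyclic AMP phosphodiesterase, held 16 CTCF-only peaks and 16 SATB1-only sites over 1504 kb. Arhgap26 and Wwox held 11 CTCF-only peaks each, with 5 and 3 SATB1-only sites. Cdh23, a cadherin of the inner ear, Elmo1, an activator of Rac, and Nav2 held 10 each, with 2 SATB1-only sites each. Arfip1 held 9 over a span of 1391 kb with 22 SATB1-only sites, and Camta1 held 9 with 4.

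Gene length separated the 2 factors. The 528 protein-coding genes of 300 kb or more held 1.57 SATB1-only sites and 0.351 CTCF-only peaks per 100 kb of gene. The 8861 genes under 10 kb held 0.534 and 2.36. In the lengths between, SATB1-only sites went up with length from 0.653 (10 to 30 kb) to 1.09 (100 to 300 kb) while CTCF-only peaks went down from 1.96 to 0.816. Over all 22367 protein-coding genes, 38.9% had a SATB1-only site in the gene or 20 kb around it and 61.3% a CTCF-only peak.

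A list of 42 T-lineage genes was examined with the same 20 kb margin, and 41 of them were found as protein-coding genes in the annotation (Ptcra was not). A SATB1-only site was present at 16 of the 41 (39.0%), a CTCF-only peak at 36 (87.8%), both at 15 and neither at 4, which were Cd8a, Cd28, Il7r and Ets1. Against all genes, the list was thus near the background for SATB1 and above it for CTCF. The median length of the listed genes was 30.3 kb, against 15.4 kb for all genes. Among all genes of 10 to 30 kb, 29.2% had a SATB1-only site with the margin and 68.95% a CTCF-only peak. Among those of 30 to 100 kb the shares were 49.75% and 71.15%. What part length has in the SATB1 and CTCF counts of the list was not tested. None of the 41 had a shared peak. Such peaks number 202 on chromosomes 1 to 19, X and Y, and the share of all genes with one was not computed. Their absence is therefore not read as a result about the listed genes.

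**Figure D5:**
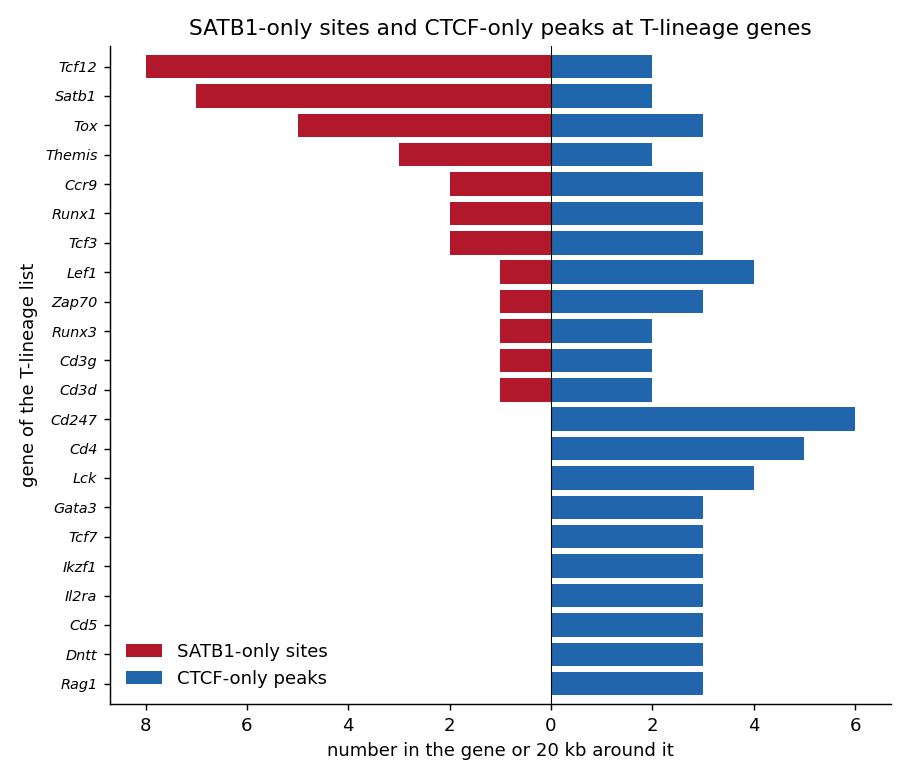
Number of SATB1-only sites (left of 0) and CTCF-only peaks (right of 0) in each T-lineage gene or 20 kb around it, for the 22 genes with at least 3 of either kind in all. Tcf12, Satb1 and Tox hold the most SATB1-only sites (8, 7 and 5), Cd247 and Cd4 the most CTCF-only peaks (6 and 5) without a SATB1-only site.

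The genes with the most SATB1-only sites on the list were Tcf12, Satb1 and Tox, which span 267.6, 97.1 and 305 kb. Other transcription factor genes, among them Tcf7, Gata3, Ikzf1 and Bcl11b, had none within the margin. These span 30.8, 33.0, 87.9 and 93.2 kb, and what part length has in this contrast was not tested. Tcf12, an E protein required in thymocyte development, had 8 with its margin and 2 CTCF-only peaks over a span of 267.6 kb. Its strongest SATB1-only site (chr9:71687297-71687756) had a fold enrichment of 21.8 and 24.8 and lay 7.39 kb from a CTCF-only peak. Satb1 itself had 7 SATB1-only sites and 2 CTCF-only peaks. The strongest of these (chr17:51937333-51937785), 35.0 kb from the gene's start, had 17.0 and 14.5, and 6 of the 7 lay on a BUR. A CTCF-only peak with an AT content of 21.4% and a fold enrichment of 8.49 lay 0.258 kb from the start of Satb1 (chr17:51972159-51972530). The other CTCF-only peak, with 5.04 and 66.2%, lay 55.2 kb from the start, between the SATB1-only sites 87.5 and 35.0 kb from it.

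Tox, a regulator of CD4 lineage development, had 5 SATB1-only sites and 3 CTCF-only peaks. Its strongest SATB1-only site (chr4:6780962-6781459) had 19.1 and 23.4 and an AT content of 64.2%, and its strongest CTCF-only peak, 0.252 kb from the start (chr4:6918256-6918769), had 16.9 and 31.8%. Themis, needed for positive selection, had 3 and 2. Runx1, Tcf3 and the chemokine receptor gene Ccr9 had 2 SATB1-only sites and 3 CTCF-only peaks each. Lef1, Runx3, Fyn and Zap70 had 1 SATB1-only site each, and Cd3d, Cd3e and Cd3g shared 1 site between them (chr9:44801751-44802111). Foxp3 had 1 SATB1-only site, 17.8 kb upstream, and no CTCF-only peak.

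The site near Zap70, the kinase that relays T cell receptor signals, was the closest pair of the list. Its SATB1-only site (chr1:36841043-36841405), with 11.7 and 6.76 and an AT content of 70.6%, lay 0.136 kb from a CTCF-only peak (chr1:36841542-36841813) with 7.42 and 50.7%. Listed genes without a SATB1-only site in the gene or 20 kb around it included Cd247 with 6 CTCF-only peaks, Cd4 with 5, Lck with 4, and Rag1, Dntt, Cd5, Il2ra, Ikzf1, Tcf7 and Gata3 with 3 each. Such absence depends on the margin. The CTCF-only peak inside Rag1 lay 41.7 kb from the nearest SATB1 site, and the study describes a SATB1-bound BUR near Rag1 and Rag2. The strongest CTCF-only peak at these genes lay near Dntt (chr19:41146014-41146398), with a fold enrichment of 25.4. At Cd4 the nearest SATB1 site was 295 kb or more from the 5 CTCF-only peaks.

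Gene families differed in which factor lay nearby. Of 1113 olfactory receptor genes (Olfr), which lie in large clusters and serve in olfactory neurons, 58.1% had a SATB1-only site within 20 kb and 6.56% a CTCF-only peak. Of 328 vomeronasal receptor genes (Vmn), 39.3% and 2.74% did. Of 374 zinc finger genes (Zfp), 36.9% and 52.7% did, and of 40 Hox genes 57.5% and 72.5%. Both receptor families had fewer CTCF-only peaks than the 61.3% of all genes, and olfactory receptors and Hox genes had more SATB1-only sites than the 38.9% of all genes. The median length was 0.96 kb for olfactory receptors, 1.09 kb for vomeronasal receptors and 4.08 kb for Hox genes, against 15.4 kb for all genes. Among all genes under 10 kb, 27.8% had a SATB1-only site with the margin and 47.9% a CTCF-only peak. What part length has in the shares of the families was not tested. Genes of a family lie in clusters and share sites within the margin, so these shares do not rest on independent genes.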

How the data were processed

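Peak lists of urea ChIP-seq in thymocytes, 2 for SATB1 and 1 for CTCF, were compared, and 8 further lists of the series were read as overlaps. The authors checked reads with FastQC, mapped them with bowtie2 2.3.1 to NCBI37/mm9 with 3 mismatches allowed in the seed and unique matches only, and used MACS2 2.2.7 to call the peaks of each sample separately, with a q-value limit of 0.01. Whether an input was given to the peak caller is not stated in the sources used here. In the deposited lists, the authors' peak caller gave fold enrichment as a ratio over the background estimated around each summit, which is not scaled between samples. The deposited −log10 p-values and −log10 q-values refer to each peak within its own list, and the deposited display score and the other columns (name and strand) were not used, while position and summit were. The lists hold no counts, so the depth per sample is unknown, and intervals cover counting error over peaks only. The second thymocyte CTCF sample, the Satb1 knockout samples and the inputs were not analysed here.

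Overlap, spacing and sequence measures were computed with Python 3.11.15, numpy 2.4.6 and scipy 1.17.1, and plots with matplotlib 3.10.9. Sequence came from NCBIM37, whose chromosome names and lengths are those of mm9, and genes from GENCODE vM1 (22367 protein-coding genes on chromosomes 1 to 19, X and Y). Values by sequence, gene and distance were taken on these chromosomes. AT content and motifs were taken over the summit and 100 bases on either side, and bins of 1 Mb needed 500 kb of sequence. Functions were tested on simulated data. Intervals for shares are 95% Clopper-Pearson intervals.

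The text names the 5 strongest peaks per class outside regions common to all lists, the 5 closest pairs, the 10 genes with the most members of each class, the T-lineage list and 4 gene families; 2 genes that these rules select are not reported here. Overlaps and distances of all SATB1 and all CTCF peaks, without the class rule, were added after the values were seen. The members, lists and rules were chosen with earlier results of these data known. The alternatives tried were peaks with −log10 q of 5 or more, 2 other overlap rules, removal of common regions, the 20000 peaks with the lowest q-values in each list, each SATB1 list alone, whole peaks, 100 kb in place of 500 kb, and all annotated genes.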

Additional observations from a re-analysis of the deposited data

How the results depend on the processing

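Of 85 values recomputed under 10 alternatives, 59 stayed within the spread used for each and 26 moved. That spread was 1.5 times for counts, 1 SD over both SATB1 lists, or the 95% interval for CTCF. SATB1-only peaks kept the higher AT content in 8 of 8 alternatives, fewer genes nearby in 9 of 9 and the smaller share in genes in 8 of 8. Their distance to CTCF stayed longer than that from CTCF-only peaks to SATB1 in 7 of 7. Grid positions had the same order, with medians of 101.5 kb to CTCF and 30.5 kb to SATB1. The order of the distances is therefore not read as a trait of the peaks. Because the members of both SATB1 lists lie on the same sites, the SD was 0 for AT content and gene number, 0.00715 for the share in genes and 0.0283 kb for the distance, so small moves passed it.

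With the 20000 peaks of lowest q-value in each list, SATB1-only sites numbered 16453 and shared peaks 156, the AT content of SATB1-only peaks was 71.1%, their share in genes 34.5%, their distance to CTCF 260 kb, and the distance from CTCF-only peaks to SATB1 102 kb; fewer peaks entered this comparison by construction. Whole peaks gave an AT content of 68.1% for SATB1-only and 50.7% for CTCF-only peaks. Within 100 kb in place of 500 kb the median gene numbers were 0 and 3. All annotated genes gave 7 and 20 within 500 kb, and 36.5% and 51.5% in genes. The share of SATB1-only peaks in genes was 34.6% under the summit rule (34.59) and under 50% of the shorter peak (34.60). The distance to CTCF was 251 kb under the summit rule (251.2) and under 50% of the shorter peak (251.3), 260.5 kb at a −log10 q of at least 5, and 257 kb without common regions. With either SATB1 list left out, the share in genes ranged from 34.7 to 34.9%, the distance to CTCF from 247 to 258 kb, the distance from CTCF-only peaks to SATB1 from 41.3 to 44.3 kb, SATB1-only sites from 38599 to 44755, and shared peaks from 296 to 308. The last distance is shorter because a single list holds more SATB1 peaks than the sites of both.

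No paired analysis was possible because only SATB1 replicate 1 shares its number with the 1 CTCF list and no test was made. Unknown depth, 1 CTCF list, and SATB1 samples whose labels name no separate preparations limit what the spread can show. The number of shared peaks depends on common regions and unplaced sequence, which hold 52 and 54 of the 256.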
